A study of Rattus norvegicus with 12 samples.

Results

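Histone deacetylases are the zinc-dependent enzymes that take acetyl groups off histones and other proteins, and their transcripts were followed in rat dorsal root ganglia over the first hours after nerve injury. Of 10 listed family genes, 8 were found on the array by their exact name (Hdac1, Hdac2, Hdac3, Hdac4, Hdac5, Hdac6, Hdac8 and Hdac11), with 16 probes out of 41012 on the array. All 16 probes passed the filter on dim signal, so each of the 8 genes was among the 29623 genes tested. Hdac7 and Hdac9 were not present under those names. Hdac7 was found under its older name Hdac7a, and Hdac9 under a name that the current RefSeq gene table lists as its synonym. These 2 genes, and Hdac10, which was not on the list, are described beside the 8 and are not counted with them.

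Male Sprague-Dawley rats had a 1 cm segment of the left sciatic nerve removed at the mid-thigh, and L4 to L6 ganglia were collected 0.5, 3, 6 or 9 h later. The 24 rats were split into groups of 6, their age is not stated, with 3 arrays for each time and 12 altogether. Every group had been injured and no uninjured group is labelled, so the 0.5 h arrays served as the baseline. Which animals contributed to an array is not labelled, so p-values measure the spread between these arrays, part of which may be technical.

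As background, histone deacetylases are grouped by their sequence similarity to yeast enzymes. Class I enzymes (Hdac1, Hdac2, Hdac3 and Hdac8) are mostly nuclear, and the first 3 of them work inside corepressor complexes. Class IIa enzymes (Hdac4, Hdac5, Hdac7 and Hdac9) bind MEF2 transcription factors and shuttle between nucleus and cytoplasm. When protein kinases phosphorylate them, 14-3-3 proteins hold them outside the nucleus. Class IIb enzymes (Hdac6 and Hdac10) act largely in the cytoplasm, and Hdac11 alone forms class IV. In injured sensory neurons of mice, export of Hdac5 protein from the nucleus has been tied to the start of axon regrowth. That is a change in the place of a protein, which an array of transcript levels does not measure.

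A probe is a designed 60-base sequence, and the value of a gene here is the signal on 1 such probe. The sequences below are shown because the results for the class IIa genes turn on which probe is read. The first is the brightest probe of Hdac4 (rn4, chr9:91242922-91242981, plus strand), and the second lies 1 base away (rn4, chr9:91242861-91242920) on the minus strand, as does the distant probe of the gene (rn4, chr9:91147638-91147697). Capitals mark the triplet CTG in the first and CAG in the second.
Hdac4, brightest probe: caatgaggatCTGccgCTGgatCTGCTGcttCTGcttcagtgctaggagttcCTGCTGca
Hdac4, adjacent probe: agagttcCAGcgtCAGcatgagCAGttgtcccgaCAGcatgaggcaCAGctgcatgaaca
The brightest Hdac4 probe thus has the orientation opposite to that of the other 2 probes of the gene, and it holds CTG 7 times, as do only 0.0341% of the array's probes. Hdac5 has an adjacent pair of opposite orientation too, but there both are dim. Its brightest probe covers a stretch of 469 bases of the genome (rn4, chr10:91267403-91267871, minus strand), so it crosses at least 1 intron. Its other probes lie 1 base apart, 1 on the minus strand (rn4, chr10:91277266-91277325) and 1 on the plus strand (rn4, chr10:91277327-91277386).
Hdac5, brightest probe: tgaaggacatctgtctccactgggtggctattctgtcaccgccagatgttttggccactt
Hdac5, adjacent probe: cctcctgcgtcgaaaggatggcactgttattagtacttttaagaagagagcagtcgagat
Hdac5, adjacent probe of opposite orientation: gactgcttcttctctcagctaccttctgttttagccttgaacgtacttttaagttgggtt
Hdac11's brightest probe is shown because it had the smallest adjusted p at 3 h against 0.5 h among the 8 members' brightest probes (rn4, chr4:125338068-125340976, plus strand, a span of 2909 bases).
Hdac11, brightest probe: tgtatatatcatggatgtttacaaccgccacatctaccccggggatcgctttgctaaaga
No 2 probes of different genes of the family shared a run of more than 10 bases on either strand. Current annotation also lists Hdac1 and Hdac2 pseudogenes and a Hdac1-like gene, and signal from them cannot be told apart from that of Hdac1 and Hdac2 here.

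Levels are log2 signal minus the 75th percentile of the array, so that 0 marks that percentile and a difference of 1 is a doubling. A level compares 1 probe between arrays and never 2 probes with each other. In whole tissue, fewer cells of a type and less RNA per cell cannot be told apart. The arrays of 0.5, 3 and 9 h each lay on a slide of their own, so time and slide cannot be told apart for them. The 6 h arrays lay on 2 slides, and only 3 h and 6 h were scanned on the same day. The 0.5 h arrays had a higher local background (64 to 86 intensity units, against 37 to 45 on the others) and fewer spots well above it (64.1 to 68.3%, against 82.9 to 85.9%). All 15 sensory neuron markers were well above background on every array. Their summed linear level ran from 984 to 1057 at 0.5 h and from 900 to 1036 at 3 h. It ran from 869 to 930 at 6 h and from 1008 to 1042 at 9 h. At 9 h against 6 h their median difference was 0.12, and that of 8 satellite glia markers was 0.15, beside 0.11 for all genes. The part of these cell types in the member differences was not tested. Of 10 skeletal muscle markers 9 were tested, and their summed linear level ran from 51.7 to 128 at 0.5 h, from 62.8 to 293 at 3 h, from 66.2 to 513 at 6 h and from 77.0 to 228 at 9 h. No marker of that list was called in any comparison. The part of adjoining tissue in the results was not tested.

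Differences called for the 8 genes on their brightest probes were small, none reaching 1.5-fold. The distant probe of Hdac4 changed more, and was 2.33-fold lower at 3 h than at 0.5 h (limma adjusted p over probes = 0.000763). On the brightest probe of each gene, Hdac3 and Hdac4 were higher at 9 h than at both 0.5 h and 6 h, Hdac5 was higher than at 6 h, and Hdac11 was higher than at 0.5 h. The brightest Hdac4 probe is opposite in orientation to the transcript that the gene's other 2 probes target. With it left out, the distant probe stood for the gene, and Hdac4 was lower at 9 h than at 0.5 h (-0.73, limma adjusted p = 0.00680). The adjacent probe, of the same orientation as the distant one, was called higher there (0.40, limma adjusted p over probes = 0.0169). The direction for Hdac4 at 9 h thus differed between probes of 1 orientation. The calls of Hdac3 and Hdac5 against 6 h, and that of Hdac11 at 9 h against 0.5 h, were each lost under some alternatives and without some single arrays. At 3 h, Hdac11 was higher and Hdac8 lower than at 0.5 h, and the Hdac8 call was also lost under some alternatives and without some single arrays. With normexp background correction in place of the scanner's own, no member was called in any comparison. At 6 h no member was called against 0.5 h or 3 h on its brightest probe. Without the probes of opposite orientation, Hdac4 was called lower at 3 h against 0.5 h (-1.22, limma adjusted p = 0.000742). It was then called higher at 6 h against 3 h (0.95, limma adjusted p = 0.00458). A moderated F test for any difference over the 4 times called 4 of the 8 members (Hdac3, Hdac4, Hdac8 and Hdac11), where it called 43.6% of all genes.

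At 3 h against 0.5 h, 2 of 8 members were called with limma (adjusted p under 0.05), 1 higher and 1 lower. Of all genes, 22.7% were called, 9.69% higher and 13% lower. No member was called at 6 h against 0.5 h, where 13.4% of all genes were (4.07% higher and 9.31% lower). With no adjustment, only Hdac8 had a p under 0.05 in that comparison, 1 of 8. The comparison of 9 h with 0.5 h called 3 of 8, all higher, beside 33.4% of all genes (22.7% higher and 10.7% lower). With quantile or cyclic loess scaling the split was 2 higher and 1 lower, and with median scaling 1 higher and 1 lower, Hdac8 being the lower one each time. That of 6 h with 3 h called none, beside 10.4% of all genes (5.93% higher and 4.45% lower), with 2 of 8 (Hdac1 and Hdac11) at an unadjusted p under 0.05. That of 9 h with 6 h called 3 of 8, all higher, beside 25.1% of all genes (19.2% higher and 5.93% lower). These counts are near those shares, and 8 genes are too few to set the family apart from the rest of the array by them. The comparisons with 0.5 h share the 0.5 h arrays.

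The median difference of the 8 members was likewise near that of all genes. It was 0.00 at 3 h against 0.5 h, beside 0.02 for all genes, and -0.04 at 6 h against 0.5 h, beside -0.04. It was 0.20 at 9 h relative to 0.5 h, beside 0.10, and 0.13 relative to 6 h, beside 0.11. At 6 h against 3 h it was -0.02, beside -0.07. All 8 members had a difference above 0 at 9 h against 6 h, but with each array scaled to its median instead, which moved the median of all genes to -0.10, only 3 did. Counting genes whose arrays were fully separated between the times compared, 4 of 8 members were at 3 h and 4 at 6 h against 0.5 h, beside 40.6% and 37% of all genes. The count was 6 of 8 for 9 h with 0.5 h, beside 48.5%, 2 of 8 for 6 h with 3 h, beside 34.9%, and 4 of 8 for 9 h with 6 h, beside 44%.

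**Figure D1:**
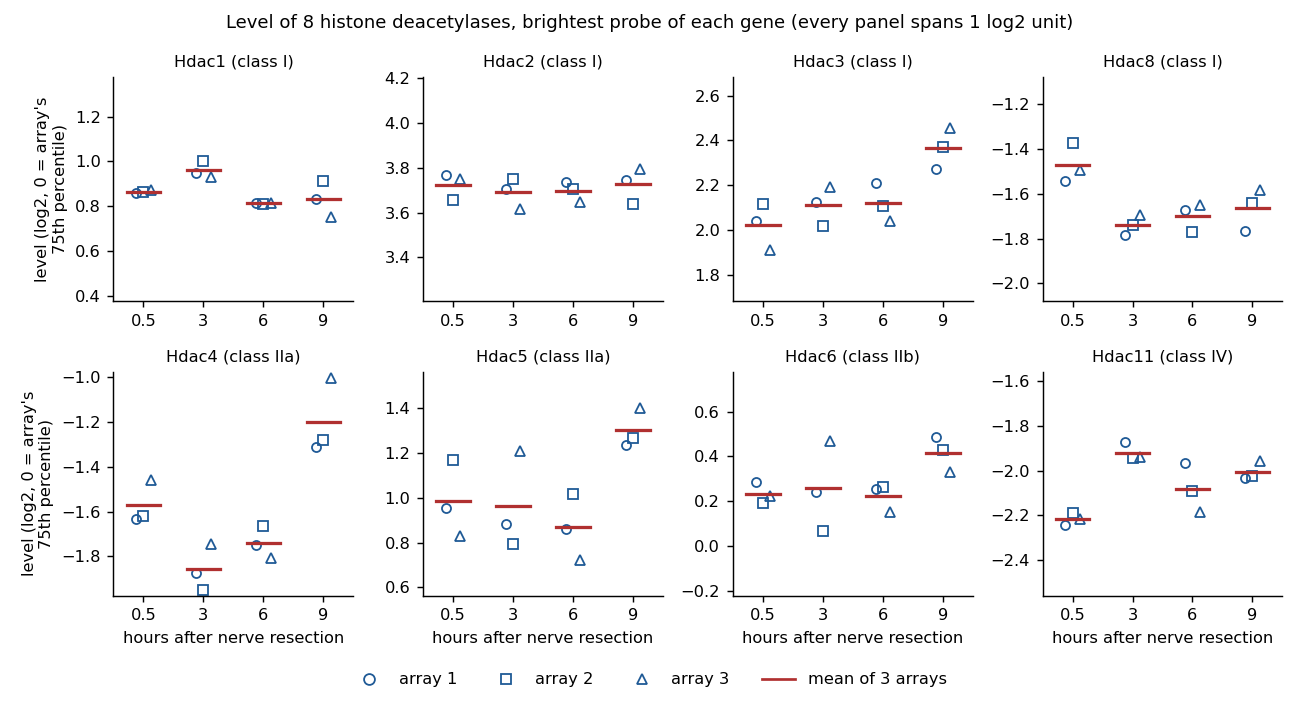
Level of each of the 8 histone deacetylases on every array by hours after nerve resection, in log2 units relative to the array's 75th percentile, brightest probe of each gene. Symbols are arrays, red bars are means of 3 arrays, and every panel spans 1 log2 unit. The 3 arrays of 9 h lie above all 6 h arrays for Hdac3, Hdac4, Hdac5 and Hdac6, while those of Hdac1, Hdac2, Hdac8 and Hdac11 overlap the 6 h arrays.

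**Figure D2:**
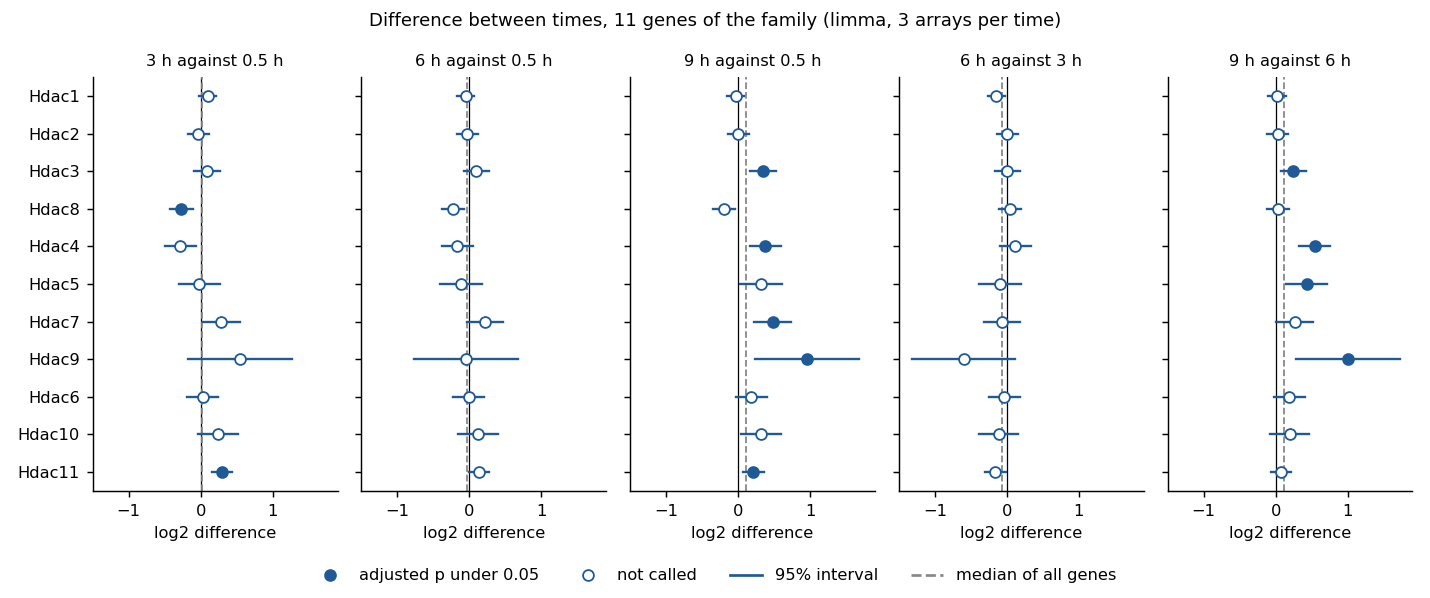
Log2 difference between times for 11 genes of the family, brightest probe, with 95% intervals (limma, 3 arrays per time). Filled points have an adjusted p under 0.05, and the dashed line is the median of all 29623 genes. Hdac9 was not well above background at 0.5 h, so no fold is given for it against that time.

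Among the class I genes, Hdac3 was the member that was higher at 9 h. Hdac3 is the catalytic subunit of the NCoR and SMRT corepressor complexes. Its level was 2.04, 2.12 and 1.91 on the 0.5 h arrays, 2.12, 2.02 and 2.19 at 3 h, 2.21, 2.10 and 2.04 at 6 h, and 2.27, 2.37 and 2.46 at 9 h. All 3 arrays of 9 h were above the other 9. The difference was 0.34 ± 0.08 (SE) on the log2 scale at 9 h against 0.5 h, which is 1.27-fold (95% interval 1.12 to 1.44, limma adjusted p = 0.00966), and 0.25 ± 0.08 at 9 h against 6 h, which is 1.19-fold (1.05 to 1.34, limma adjusted p = 0.0481). The second probe of Hdac3 had levels of 0.66, 0.55 and 0.54 at 0.5 h, 0.81, 0.68 and 0.86 at 3 h, 0.71, 0.68 and 0.60 at 6 h, and 0.79, 0.74 and 0.89 at 9 h. It was also called higher at 9 h against 0.5 h, by 0.23 ± 0.07 (limma adjusted p over probes = 0.0321), and not at 9 h against 6 h, where it differed by 0.15 ± 0.07 (limma adjusted p = 0.155). The call at 9 h against 6 h was lost in 7 of the 12 fits that left out 1 array each, where adjusted p over the 12 ran from 0.0379 to 0.160. The 7 left out 0.5 h array 1 or 2, 3 h array 1, 6 h array 2 or 3, or 9 h array 2 or 3. That call was also lost in 8 of 14 alternatives. With each array scaled to its median the difference was 0.04 (limma adjusted p = 0.738). With quantile and cyclic loess scaling it was 0.25 and 0.24 (limma adjusted p = 0.0539 and 0.0558), and with the mean of probes 0.20 (limma adjusted p = 0.0660).

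Hdac8 went the other way early. Hdac8 is a class I enzyme known for deacetylating the cohesin subunit Smc3. Its brightest probe had levels of -1.54, -1.37 and -1.49 at 0.5 h, -1.78, -1.74 and -1.69 at 3 h, -1.67, -1.77 and -1.65 at 6 h, and -1.77, -1.64 and -1.58 at 9 h. All 9 later arrays were below the 3 of 0.5 h. At 3 h against 0.5 h Hdac8 fell by 0.27 ± 0.07 on the log2 scale, or 1.21-fold lower (limma adjusted p = 0.0219). At 6 h and 9 h against 0.5 h the differences of -0.23 ± 0.07 (limma adjusted p = 0.0587) and -0.19 ± 0.07 (limma adjusted p = 0.0568) missed the threshold. At 9 h Hdac8 was called lower with 3 other scalings, by quantile, by median or by cyclic loess (-0.24, -0.31 and -0.22, limma adjusted p = 0.0246, 0.0118 and 0.0290). It was also called lower with only probes well above background on all arrays (limma adjusted p = 0.0492). With slide as a random block the limma adjusted p was 0.00409, but slide cannot be told apart from time here. That block called 16879 genes of the array in this comparison, against 9881 in the main fit. The 2 probes of Hdac8 disagreed, since the dimmer one had levels of -3.61, -3.44 and -3.61 at 0.5 h and -3.52, -3.63 and -3.48 at 3 h, which overlap, with a difference of 0.02 ± 0.08 (limma adjusted p = 0.918). Without 0.5 h array 2, 3 h array 1 or 3 h array 2 the 3 h call was lost, with an adjusted p of up to 0.0750. The 3 h call was also lost with median scaling (-0.20, limma adjusted p = 0.0817) and with only those 2 times in the fit (limma adjusted p = 0.0624). With the mean of both probes the 3 h difference was -0.13 (limma adjusted p = 0.260).

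Hdac1 and Hdac2, close paralogs that form the catalytic pair of the Sin3, NuRD and CoREST complexes, were not called on their brightest probes. Hdac1, which has a single probe, had levels of 0.86, 0.86 and 0.87 at 0.5 h, 0.95, 1.00 and 0.93 at 3 h, 0.82, 0.81 and 0.81 at 6 h, and 0.83, 0.91 and 0.75 at 9 h. Its 3 h arrays were above those of 0.5 h and 6 h, by 0.10 ± 0.05 against 0.5 h (limma adjusted p = 0.234). The 6 h arrays were below the 3 h ones, with a difference of -0.15 ± 0.05 (limma adjusted p = 0.118). The brightest probe of Hdac2 had means ± SD (n = 3) of 3.73 ± 0.06, 3.69 ± 0.07, 3.70 ± 0.05 and 3.73 ± 0.08 at 0.5, 3, 6 and 9 h. Its difference at 9 h against 0.5 h was 0.00 with a 95% interval from -0.14 to 0.14. The second probe of Hdac2, which starts at base 403 of its target transcript where the brightest starts at base 1717, gave another result. It had levels of -1.62, -1.72 and -1.72 at 0.5 h, -1.71, -1.67 and -1.70 at 3 h, -1.63, -1.84 and -1.64 at 6 h, and -1.99, -2.01 and -2.03 at 9 h. All 3 arrays of 9 h were below the other 9, and this probe was called lower at 9 h against 0.5 h (-0.33 ± 0.07, limma adjusted p over probes = 0.00504) and against 6 h (-0.31 ± 0.07, limma adjusted p = 0.00739).

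Hdac4, read on its brightest probe, had the smallest F test p of the 8 members (limma adjusted p = 0.00212). The Hdac4 protein has little deacetylase activity of its own and acts as a scaffold that represses MEF2 targets. Its brightest probe had levels of -1.64, -1.62 and -1.46 at 0.5 h, -1.87, -1.95 and -1.75 at 3 h, -1.75, -1.67 and -1.81 at 6 h, and -1.31, -1.28 and -1.0 at 9 h. The 3 arrays of 9 h were above all others, and those of 3 h and 6 h were below all of 0.5 h. The difference was 0.54 ± 0.10 at 9 h against 6 h, which is 1.46-fold (95% interval 1.25 to 1.69, limma adjusted p = 0.00230), and 0.37 ± 0.10 at 9 h against 0.5 h, which is 1.3-fold (1.12 to 1.5, limma adjusted p = 0.0151). At 3 h against 0.5 h the difference was -0.28 ± 0.10 (limma adjusted p = 0.0595), and it was called lower under 5 alternatives, among them cyclic loess scaling (limma adjusted p = 0.0454) and the mean of probes (-0.40, limma adjusted p = 0.00236). Another of the 5 was the slide block, and slide cannot be told apart from time for these arrays. Both calls at 9 h held in all 12 fits that left out 1 array, but not with the mean of the probes of the gene, where the differences were 0.10 against 6 h (limma adjusted p = 0.282) and 0.01 against 0.5 h (limma adjusted p = 0.890). With median scaling the difference from 0.5 h was 0.26 (limma adjusted p = 0.0522). Hdac4 is also known to act in skeletal muscle, whose markers are given above. Fat markers had a summed level of 1.41 to 1.83 at 0.5 h, 1.27 to 6.31 at 3 h, 2.11 to 4.24 at 6 h and 1.93 to 5.96 at 9 h. Of 5 such markers, 2 were called higher at 9 h against 0.5 h and 1 against 6 h, beside 22.7% and 19.2% of all genes. The part of fat was not tested.

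The other probes of Hdac4 showed other courses. The adjacent probe, on the opposite strand, had levels of -4.60, -4.46 and -4.57 at 0.5 h, -4.31, -4.37 and -4.07 at 3 h, -4.31, -4.31 and -4.50 at 6 h, and -4.22, -4.26 and -3.96 at 9 h. It too was called higher at 9 h against 0.5 h (0.40 ± 0.11, limma adjusted p over probes = 0.0169), but at 3 h its difference from 0.5 h was 0.29 ± 0.11 (limma adjusted p = 0.0739), opposite in sign to that of the brightest probe. The distant probe had levels of -3.0, -2.71 and -2.67 at 0.5 h, -3.86, -4.01 and -4.15 at 3 h, -3.23, -3.05 and -2.90 at 6 h, and -3.25, -3.48 and -3.85 at 9 h. All 3 arrays of 3 h were below the other 9, with 9 h array 3 the nearest to them. This probe was called lower at 3 h against 0.5 h, by 2.33-fold (-1.22 ± 0.16, limma adjusted p over probes = 0.000763), and at 9 h against 0.5 h, by 1.66-fold (-0.73 ± 0.16, limma adjusted p = 0.00683). It was called higher at 6 h against 3 h, by 1.93-fold (0.95 ± 0.16, limma adjusted p = 0.00468), the only call of a member's probe in that comparison. At 9 h against 6 h it differed by -0.47 ± 0.16 (limma adjusted p = 0.0569). The direction for Hdac4 at 9 h thus differed between its probes. The adjacent and distant probes start at bases 1541 and 4833 of the same target transcript, and the later base has the lower genome coordinate. That transcript thus runs on the minus strand. The brightest probe has another target and lies on the plus strand, opposite in orientation to that transcript. Whether it reads an antisense transcript was not tested. Of the 14 probes with at least 7 CTG triplets, the brightest Hdac4 probe among them, 4 were called higher and 2 lower at 9 h against 6 h, with a median difference of -0.01, where 24.5% of all probes were called. Against 0.5 h, 4 were higher and 1 lower at 9 h, with a median of 0.10, where 33% of all probes were called.

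**Figure D3:**
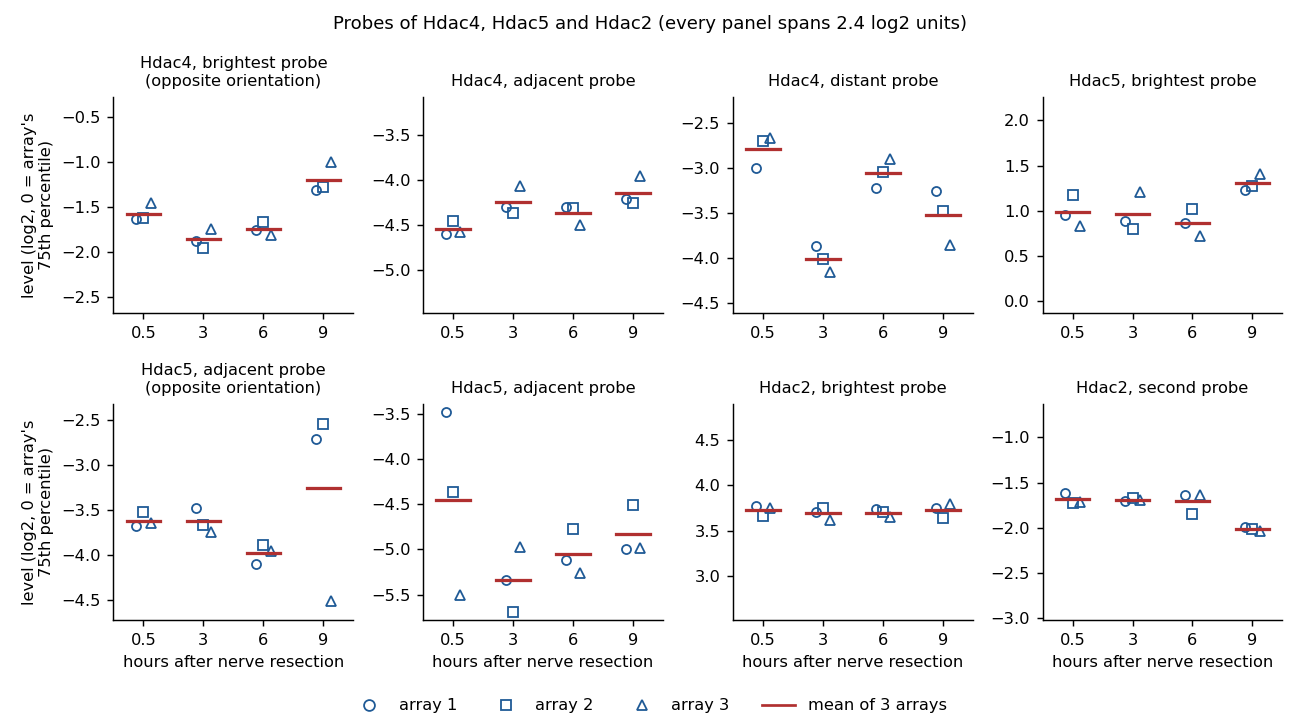
Levels of the probes of Hdac4, Hdac5 and Hdac2 by hours after nerve resection, in log2 units relative to the array's 75th percentile. Symbols are arrays, red bars are means of 3 arrays, and every panel spans 2.4 log2 units. The brightest Hdac4 probe is highest at 9 h, while the distant one has its lowest mean at 3 h and is below its 0.5 h arrays again at 9 h.

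Hdac5, the class IIa enzyme known from injured sensory axons, was higher at 9 h against 6 h on its brightest probe. That probe had levels of 0.95, 1.17 and 0.83 at 0.5 h, 0.89, 0.79 and 1.21 at 3 h, 0.86, 1.02 and 0.72 at 6 h, and 1.23, 1.27 and 1.40 at 9 h. The 3 arrays of 9 h were above the other 9, by a small margin over the highest array of 3 h. The difference was 0.43 ± 0.13 at 9 h against 6 h, which is 1.35-fold (95% interval 1.11 to 1.65, limma adjusted p = 0.0327), and 0.32 ± 0.13 at 9 h against 0.5 h, which missed the threshold (limma adjusted p = 0.0837). The call at 9 h against 6 h was lost without 6 h array 1 or 3 or 9 h array 2 or 3, with an adjusted p of up to 0.12. With median scaling the difference was 0.22 (limma adjusted p = 0.171). The call was also lost with the mean of probes (0.46, limma adjusted p = 0.153) and with the replicate block (limma adjusted p = 0.0606). The dimmer probes of Hdac5 were called in no comparison. The one of opposite orientation had -2.71, -2.54 and -4.50 at 9 h, against -4.10, -3.89 and -3.95 at 6 h, so that 9 h array 3 stood apart from the other 2. The one on the minus strand had -4.99, -4.50 and -4.98 at 9 h, against -5.12, -4.78 and -5.26 at 6 h, and these overlap.

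The other class IIa genes were found under other names. Hdac7, known for its part in blood vessels and in the thymus, had levels of 0.19, -0.20 and -0.13 at 0.5 h, 0.13, 0.14 and 0.45 at 3 h, 0.17, 0.24 and 0.10 at 6 h, and 0.40, 0.47 and 0.42 at 9 h on its brightest probe. The difference at 9 h against 0.5 h was 0.48 ± 0.11, or 1.39-fold (95% interval 1.17 to 1.66, limma adjusted p = 0.0104), with no overlap, and at 9 h against 6 h it was 0.26 ± 0.11 (limma adjusted p = 0.121). Its second probe was called at 9 h against both 0.5 h (0.62 ± 0.11, limma adjusted p over probes = 0.00229) and 6 h (0.35 ± 0.11, limma adjusted p = 0.0387). Another probe was well above background on 6 arrays only and was not kept. Endothelial markers, which matter for Hdac7, had a median difference of 0.34 for 9 h with 0.5 h (2 of 6 called, both higher) and 0.29 for 9 h with 6 h (1 of 6, higher). Of all genes, 22.7% and 19.2% were called higher in those comparisons, with median differences of 0.10 and 0.11. The part of endothelial cells in the Hdac7 difference was not tested.

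Hdac9 was near the limit of detection. It was well above background on no 0.5 h array and on all 9 others, with levels of -5.56, -5.73 and -6.23 at 0.5 h, -5.21, -5.26 and -5.40 at 3 h, -5.78, -5.61 and -6.29 at 6 h, and -4.48, -4.48 and -5.70 at 9 h. Arrays 1 and 2 of 9 h were above all others, while array 3 lay among those of 6 h. At 9 h against 6 h it was called higher (1.01 ± 0.32, or 2.01-fold, 95% interval 1.22 to 3.32, limma adjusted p = 0.0455). Against 0.5 h it was called at 9 h too (limma adjusted p = 0.0452), but the bound that the 0.5 h detection limit allows was under 1, so no fold is given. Each of these calls was lost in 10 of the 12 fits that left out 1 array, with adjusted p of up to 0.158 for the comparison with 6 h and 0.143 for that with 0.5 h. Both were kept without 9 h array 3, where the difference from 6 h was 1.42 on the log2 scale. The call against 6 h was also kept without 0.5 h array 3, and that against 0.5 h without 6 h array 3. With other scaling both calls ended, and the difference of 9 h from 6 h was 0.46 with quantile (limma adjusted p = 0.442), 0.57 with cyclic loess (limma adjusted p = 0.286) and 0.80 with median scaling (limma adjusted p = 0.0891).

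Hdac6, the class IIb enzyme that deacetylates tubulin in the cytoplasm, was not called. It had levels of 0.29, 0.19 and 0.22 at 0.5 h, 0.24, 0.07 and 0.47 at 3 h, 0.26, 0.26 and 0.15 at 6 h, and 0.49, 0.43 and 0.33 at 9 h. The arrays of 9 h were above those of 0.5 h and 6 h, by 0.18 ± 0.10 (limma adjusted p = 0.168) and 0.19 ± 0.10 (limma adjusted p = 0.171). The intervals of both, from -0.03 to 0.39 and from -0.02 to 0.40, take in differences as large as that called for Hdac3. Hdac10, the other class IIb gene and a polyamine deacetylase, had 0.11, 0.14 and 0.05 at 0.5 h, 0.35, 0.23 and 0.43 at 3 h, 0.34, 0.22 and 0.10 at 6 h, and 0.69, 0.16 and 0.39 at 9 h. It was not called, and its 9 h arrays, with a difference of 0.31 ± 0.12 from 0.5 h (limma adjusted p = 0.0762), were spread the most.

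Hdac11, the class IV enzyme known for removing long fatty acyl groups from lysine, was higher at 3 h. Its brightest probe had levels of -2.24, -2.19 and -2.22 at 0.5 h, -1.87, -1.95 and -1.94 at 3 h, -1.96, -2.09 and -2.19 at 6 h, and -2.03, -2.02 and -1.96 at 9 h. All 9 later arrays were at or above the highest of 0.5 h, and those of 3 h were highest. At 3 h against 0.5 h Hdac11 was higher by 0.30 ± 0.06, or 1.23-fold (95% interval 1.11 to 1.36, limma adjusted p = 0.00973), and this call held without any 1 array. At 6 h against 0.5 h the difference was 0.13 ± 0.06 (limma adjusted p = 0.195). At 9 h against 0.5 h it was 0.21 ± 0.06, or 1.16-fold (limma adjusted p = 0.0295), a call lost without any 1 of the 0.5 h arrays or without 9 h array 2 or 3 (adjusted p of up to 0.0917), and 0.10 with median scaling (limma adjusted p = 0.357). The second probe of Hdac11 had the same sign in both, with 0.19 ± 0.08 at 3 h (limma adjusted p over probes = 0.141) and 0.19 ± 0.08 at 9 h (limma adjusted p = 0.106), and was not called.

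Over the 16 probes of the 8 genes, 3 were called at 3 h and none at 6 h against 0.5 h, where 22.5% and 12.7% of all kept probes were. For 9 h, 7 were called against 0.5 h and 4 against 6 h, beside 33% and 24.5% of all kept probes. At 6 h against 3 h the count was 1, beside 10.3%. The F test called 7 of the 16, beside 43.3%. Of the 7 at 9 h against 0.5 h, 5 were higher and 2 lower, the lower ones being the second probe of Hdac2 and the distant probe of Hdac4. Probes of a gene are not replicates of each other. With normexp background correction in place of the scanner's own, none of the 8 members was called in any comparison, and that for 9 h with 6 h called 163 genes in all where the scanner's correction gave 7448.

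**Figure D4:**
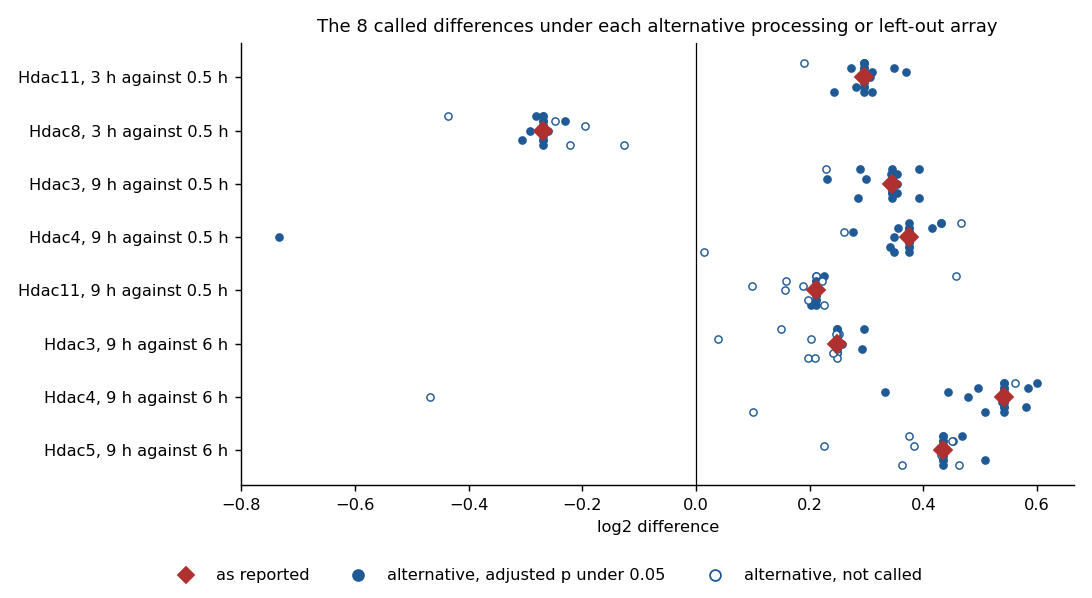
The 8 called differences of members (log2) as reported (diamonds) and under each alternative processing or with 1 array left out (circles, filled where adjusted p was under 0.05). Hdac11 at 3 h and Hdac3 at 9 h against 0.5 h keep their call except under normexp background correction. Hdac4 turns negative at 9 h when its brightest probe is left out and its distant probe stands for the gene.

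Of 23 partners and kinases of class IIa enzymes (MEF2 factors, 14-3-3 proteins and the kinases that phosphorylate class IIa enzymes), 20 were tested. The related lists were not recomputed under other scalings. At 9 h against 0.5 h, 8 were called higher and 1 lower, with a median difference of 0.17, beside 22.7% higher, 10.7% lower and a median of 0.10 for all genes. Against 6 h, 5 were called higher and none lower, with a median of 0.14, beside 19.2%, 5.93% and 0.11 for all genes. Calls over the whole array were mostly higher at 9 h too. Camk2a, a calcium-dependent kinase of neurons, differed by 0.73 ± 0.15 at 9 h against 0.5 h (limma adjusted p = 0.00521) and by 0.56 ± 0.15 at 9 h against 6 h (limma adjusted p = 0.0210). Prkd2, a protein kinase D that phosphorylates class IIa enzymes, differed by 0.41 ± 0.09 (limma adjusted p = 0.00908) and 0.45 ± 0.09 (limma adjusted p = 0.00592) in those comparisons. Camk2b differed by 0.46 ± 0.11 at 9 h against 6 h (limma adjusted p = 0.0117).

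The lower call was Sik1, a salt-inducible kinase that also phosphorylates class IIa enzymes, listed on the array as Snf1lk. Sik1 was lower at every later time, by 0.91 ± 0.08 at 3 h, by 0.73 ± 0.08 at 6 h and by 0.89 ± 0.08 at 9 h on the log2 scale (limma adjusted p = 9.2e-05, 0.00159 and 0.000108). Mef2d, a DNA-binding partner of class IIa enzymes, was called higher at every later time against 0.5 h, but its 0.5 h spots were not well above background, the bound was under 1, and no fold is given. At 6 h against 3 h, Camk1 (0.24 ± 0.06) and Prkd3 (0.29 ± 0.08) were called higher and Camk2g (-0.37 ± 0.10) lower.

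Of 29 corepressor subunits listed, 26 were tested, and 3 were called higher and 6 lower at 9 h against 0.5 h, with 4 higher and 2 lower at 9 h against 6 h. These 9 and 6 of 26 stand beside 33.4% and 25.1% of all genes, so they set nothing apart. Ncor1, the scaffold that carries Hdac3, was lower at 9 h against 0.5 h (-0.35 ± 0.08, limma adjusted p = 0.00795), as were Rbbp7 (-0.34 ± 0.06) and Chd4 (-0.30 ± 0.08), which sit in Hdac1 and Hdac2 complexes. Chd3, a NuRD helicase, was at least 1.19-fold higher at 9 h than at 0.5 h, where it was not well above background, and 1.65-fold higher at 9 h than at 6 h (limma adjusted p = 0.00134). Mta1 (0.59 ± 0.11) and Mbd3 (0.34 ± 0.08), also of NuRD, were higher at 9 h against 6 h. At 3 h and 6 h against 0.5 h, 4 of 26 were called each time, beside 22.7% and 13.4% of all genes. Among them was Rcor1 of CoREST, higher by 0.25 ± 0.07 and 0.38 ± 0.07, for which 1 and 2 other probes had the opposite sign. None of the 26 was called at 6 h against 3 h, where 10.4% of all genes were.

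The sirtuins are NAD-dependent deacylases unrelated in descent. Among them Sirt5, a mitochondrial desuccinylase, was lower by 1.04 ± 0.13 at 3 h, by 0.67 ± 0.13 at 6 h and by 1.06 ± 0.13 at 9 h against 0.5 h on the log2 scale (limma adjusted p = 0.000727, 0.0121 and 0.000472). Of the 7 sirtuins, 3, 1 and 4 were called in those comparisons, 1, 0 and 2 of them higher, with 1 called between 6 h and 3 h and 2 between 9 h and 6 h. Of all genes, 22.7%, 13.4%, 33.4%, 10.4% and 25.1% were called in the same order, for this list and the next. Sirt4 was higher at 3 h (0.34 ± 0.08) and at 9 h (0.34 ± 0.08) against 0.5 h, and Sirt6 at 9 h (0.39 ± 0.11). Of 14 acetyltransferases, which add the groups that deacetylases remove, 13 were tested, and 2, 3 and 7 were called at 3, 6 and 9 h against 0.5 h. Ncoa1 and Ncoa2, nuclear receptor coactivators, were lower at all 3 times, by 0.46 ± 0.05 and 0.67 ± 0.08 at 9 h. Kat6a, listed as Myst3, was lower by 0.77 ± 0.09 at 9 h against 0.5 h, with 1 other probe of the opposite sign, while Ep300 (0.22 ± 0.06), Kat5 (0.22 ± 0.07) and Kat7 (0.29 ± 0.09) were higher. The comparison of 6 h with 3 h called 2 of the 13, and that of 9 h with 6 h called 3.

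**Figure D5:**
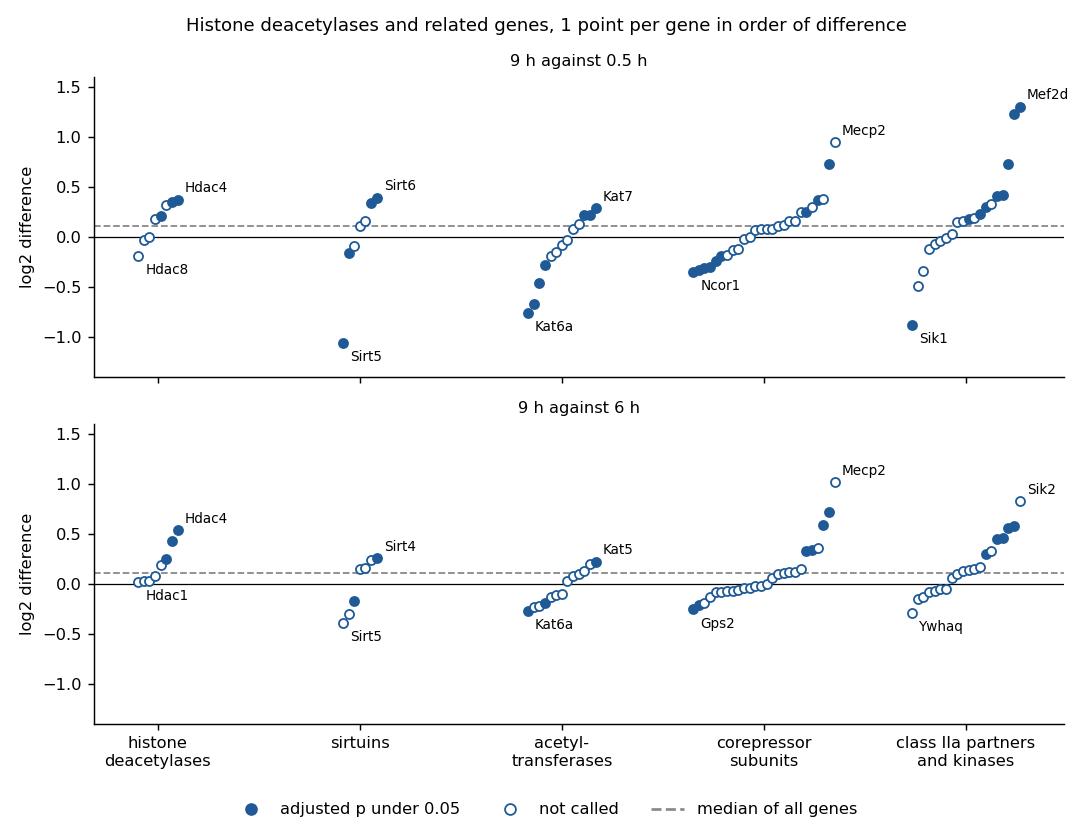
Log2 difference of each tested gene at 9 h against 0.5 h (top) and at 9 h against 6 h (bottom), for the 8 histone deacetylases and 4 related lists, sorted within each list. Filled points have an adjusted p under 0.05, the dashed line is the median of all genes, and the lowest and highest gene of each list is named. Sirt5 and Sik1 lie farther from 0 at 9 h against 0.5 h than the brightest probe of any of the 8 histone deacetylases, while Mef2d, not well above background at 0.5 h, has no interpretable size there.

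The course of Hdac4's brightest probe over the 12 arrays was most like that of Mesp2, a transcription factor of somite formation, and of 4 features that the array names only by sequence or probe identifiers. Pearson's r was 0.98 for Mesp2 and 0.97 to 0.98 for the 5 together, out of 29444 genes with a value on every array. The 12 arrays share slides within each time, so time and slide cannot be told apart in this likeness.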

How the data were processed

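Rat dorsal root ganglion RNA was amplified, labelled with Cy3 and hybridised to 1-colour arrays, per the labels' protocols. Each spot has a background-subtracted linear intensity from the scanner software, named in the deposited files as Agilent Feature Extraction 10.5.1.1. A file over all samples that the authors deposited carries those intensities unchanged (largest difference 0). The log2 values were computed here from the deposited signals. How arrays were scaled to each other is not stated.

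Control spots (1639) and outlier spots (76 to 218 per array) were left out, and no spot was saturated. Each array's 75th percentile was subtracted from the log2 signal, and spots of a probe were averaged. A probe was kept where every array of some time was well above background (34837 of 41012), and the brightest kept probe stood for each gene name. Means were fitted over all 29623 genes and 12 arrays with limma 3.58.1 in R 4.3.3 (with data.table, version 1.17.8, for input), with Benjamini-Hochberg adjustment within each comparison. Probe-level tests used the same fit over all kept probes. The fitting code was tested on simulated data. The number of arrays limits the precision. A gene dim on every array of a time has only a bound, computed against the lowest detected signal of each dim array.

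The members and lists were chosen with earlier results of these data known. All family genes and probes are named. From each related list, up to 3 called genes per direction and comparison were selected by smallest p. Of those selected, Ywhah, Sin3a, Mta3, Sap130, Tbl1xr1, Gps2 and Sirt7 are not described above. The 5 genes most like the member with the smallest F test p were selected too. Probe coordinates are those of the files (rn4). Names were matched to the RefSeq gene table of the GRCr8 assembly, used for names only. Arrays with the same replicate number did not deviate together from their group means (18 pairs, r of -0.13 to 0.22, median 0.02, 3 over 0.1), so the numbers were not used as pairs. Alternatives covered background correction, scaling, the filter, the probe rule, the slide and replicate blocks and leaving out each array. Those without the opposite-orientation probes and without the 0.5 h arrays were added after seeing the data.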

Additional observations from a re-analysis of the deposited data

How the results depend on the processing

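Of 1016 differences of the 8 members under an alternative or without 1 array, 943 stayed on their side of the threshold, 49 lost a call and 24 gained one. The sign changed in 51, of which 2 had been called. Those 2 were Hdac4 at 9 h against 0.5 h and against 6 h without the probes of opposite orientation, where the distant probe stood for the gene. For the other changes of sign the cause was not tested. With normexp background correction, 0 members were called in each comparison that had calls and in the F test, and only 684, 1, 422, 320 and 163 genes of the array were called for 3, 6 and 9 h with 0.5 h, 6 h with 3 h, and 9 h with 6 h (678 in the F test), where the main settings gave 6731, 3963, 9881, 3075, 7448 and 12919. Members called at 3 h against 0.5 h numbered 2, or 1 with median scaling or only those 2 times in the fit, 3 with cyclic loess scaling, only probes above background on all arrays or no probes of opposite orientation, and 4 with slide as a random block. None was called at 6 h against 0.5 h, but 1 was with no filter on dim probes, with only probes above background on all arrays, or with the slide block. At 9 h against 0.5 h the count of 3 became 6 with the slide block. At 6 h against 3 h it was 0, but 1 with the mean of a gene's probes or without the 2 probes of opposite orientation, and 2 with the slide block. At 9 h against 6 h the count of 3 became 1 with median scaling or the replicate block and 0 with the mean of probes. The F test count of 4 became 2 with the mean of probes or the replicate block and 7 with the slide block. The estimated correlation within slides was -0.25, and that block called 13845, 9073, 16879, 7928, 12504 and 21774 genes in the order above. Slide cannot be told apart from time for 0.5, 3 and 9 h, so this block cannot account for slide. Leaving out each array gave 1 to 3, 0 to 0, 2 to 4, 0 to 0, 1 to 3 and 2 to 5 members in that order. Without the probes of opposite orientation Hdac4 had -0.73 at 9 h against 0.5 h (limma adjusted p = 0.00680) and -0.47 against 6 h (limma adjusted p = 0.0564), and with the mean of probes Hdac2 had -0.16 at 9 h against 0.5 h (limma adjusted p = 0.0486). Hdac11 lost its call at 9 h against 0.5 h under quantile, median and cyclic loess scaling (adjusted p of 0.0752 to 0.357) and the replicate block. Genes called higher and lower at 9 h against 6 h were 5692 and 1756, but 3558 and 6069 with median, 3250 and 3631 with quantile and 3704 and 2973 with cyclic loess scaling. Counts over all genes also moved by over 1.5 times with no filter (11482 and 8981 at 3 h and 6 h against 0.5 h), with only those 2 times in the fit (4469 and 2488), with cyclic loess scaling (6457 at 6 h against 0.5 h) and with only probes above background on all arrays (4515 at 9 h against 6 h). Leaving out 1 array moved them at 6 h against 0.5 h (2165 to 4071) and 6 h against 3 h (1648 to 3179). The higher background at 0.5 h limits what can be read for Hdac9, Mef2d and Chd3, and 3 arrays per time limit the precision.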
